A study of Mus musculus with 8 samples.

Results

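The histone genes were read from poly(A) RNA-seq of NIH3T3 cells treated with Mic-628 or with vehicle. Rows of the gene table were taken by symbol (the H1f, H2a, H2b, H3c, H3f, H4c and H4f families with Macroh2a1 and Macroh2a2), and a summed count of at least 10 over the 8 libraries was required. Of 78298 rows, 118 matched by symbol and 67 passed. The other 51 fell below the minimum, 31 of them at 0. H3c1 and H2bc22, each with a summed count of 10.0, lay just inside the minimum, and H3f3c, with 9.0, just outside. Members were chosen by these summed counts, so their levels are given as a description with no test. The 67 rows were split into 52 replication-dependent rows (4 H1, 11 H2A, 13 H2B, 12 H3 and 12 H4, with 1 pseudogene among the H2A rows) and 15 rows of the variant class. The variant class held 12 genes, 2 pseudogenes and 1 antisense row, and it included H2ax, which is known to be made with both kinds of mRNA end.

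NIH3T3 is an established mouse embryonic fibroblast line, and its genotype is labelled WT in all groups. The 4 Mic-628 libraries and the 4 vehicle libraries are all listed at day 1, and no dose is given in the sources used here. The series title presents Mic-628 as an inducer of the clock gene Period1. Each library carries a batch number from 1 to 4, shared by 1 vehicle and 1 Mic-628 library. Whether replicate libraries came from separate cultures is not stated in the labels. The p-values below therefore reflect variation among libraries that may be partly or wholly technical. In bulk RNA, fewer cells expressing a gene and less RNA per cell cannot be told apart.

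Histones wrap DNA into nucleosomes: H2A, H2B, H3 and H4 form the core particle, and H1 binds the linker DNA between particles. Replication-dependent histone genes lie in clusters and are transcribed mainly in S phase. Their mRNAs normally end just after a conserved stem-loop, bound by the protein SLBP, and not in a poly(A) tail. Variant histones, such as H3.3, H2A.Z and macroH2A, are made through the cell cycle from ordinary polyadenylated mRNAs, so a poly(A) selection keeps them and retains the stem-loop mRNAs poorly.

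The stem-loop letters are shown first because this element defines the usual mRNA end of the replication-dependent class. The motif, a stem arm GGCNCT followed by a loop TTTN and a stem arm AGNNCC, was searched on the sense strand of GENCODE M21 transcripts (GRCm38). It was found in 33 of 52 replication-dependent rows and in 1 of 13 matched variant rows, H2ax. The 19 replication-dependent models without the motif had a median exon length of 410 nt, with the longer H2bc21 (2619 nt) and H2bc4 (1153 nt) among them. The search covered annotated models only, so it cannot show whether a stem-loop lies beyond the end of a model. A stem-loop with another base at a fixed position of the motif would also be missed. Over the table the motif was found in 50 of 48584 table rows that matched a transcript (0.103%), of which 44 had histone symbols. Sequences are given 5′ to 3′ in DNA letters with 5 bases on each side of the motif, and the capitals mark the 16 bases of the motif. The examples are members with high levels or large fold changes, plus H2bc8, whose promoter is shown further on.
H2ac25: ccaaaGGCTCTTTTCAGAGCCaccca
H1f2: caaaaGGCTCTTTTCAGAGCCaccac
H3c14: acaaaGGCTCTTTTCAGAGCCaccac
H2bc8: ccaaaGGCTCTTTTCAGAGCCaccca
H4c9: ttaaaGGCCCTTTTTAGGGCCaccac
H4c14: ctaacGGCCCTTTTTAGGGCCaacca
H2ax: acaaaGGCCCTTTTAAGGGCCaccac
These windows lie on GRCm38 at chr11:58955167-58955192 (plus strand) for H2ac25, chr13:23739507-23739532 (plus) for H1f2, chr3:96247322-96247347 (plus) for H3c14, chr13:23571838-23571863 (plus) for H2bc8, chr13:22040961-22040986 (minus) for H4c9, chr3:96262934-96262959 (minus) for H4c14 and chr9:44335235-44335260 (plus) for H2ax. All 8 H4 rows with the motif had a GGCC stem, 6 as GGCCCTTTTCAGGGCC and 2 as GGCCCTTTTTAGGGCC. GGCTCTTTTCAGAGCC was the commonest form, in 19 members from H1, H2A, H2B and H3. Among the 7 H2A rows with the motif, H2ax alone had the GGCC stem.

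Upstream sequence was searched as well. RefSeq promoters (GRCm38.p6) were matched for 54 of 67 members, and the 250 bases before the start were searched on both strands. CCAAT, the box bound by the factor NF-Y, was present in 35 of 44 replication-dependent and 6 of 10 variant promoters, against 33.8% of 32851 promoters of the same length. TATAAA was present in 22 of 44 and 1 of 10, against 12.4%. The octamer ATTTGCAT, which POU-domain factors such as OCT1 bind, was present in 10 of 44 (6 of 11 H2B, 4 of 9 H2A) and 1 of 10, against 1.60%. Each motif was searched separately, so matches may overlap at their ends, and a match is a description of the letters only. H2bc8, a replication-dependent H2B gene with all of these motifs, and Macroh2a2, the member that passed the test below and has none of them, are printed with motif matches in capitals.
H2bc8 promoter, GRCm38.p6 chr13:23571150-23571399, plus strand: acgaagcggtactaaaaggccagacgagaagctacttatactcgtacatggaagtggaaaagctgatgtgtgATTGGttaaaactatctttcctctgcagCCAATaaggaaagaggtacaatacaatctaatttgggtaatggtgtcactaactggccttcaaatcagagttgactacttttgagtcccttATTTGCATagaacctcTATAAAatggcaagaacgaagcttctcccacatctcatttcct
Macroh2a2 promoter, GRCm38.p6 chr10:61783865-61784114, minus strand: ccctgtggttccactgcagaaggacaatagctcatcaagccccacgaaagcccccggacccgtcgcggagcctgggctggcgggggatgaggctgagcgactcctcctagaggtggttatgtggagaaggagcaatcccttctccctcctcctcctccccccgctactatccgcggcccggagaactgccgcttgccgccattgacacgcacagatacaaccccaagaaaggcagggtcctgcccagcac

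Variant histones far exceeded replication-dependent histones in these poly(A) libraries. FPKM, the read count scaled to exon length and library total, had a median over rows of 13.9 in the variant class (range 0.136 to 220.0) and of 0.256 in the replication-dependent class (range 0.0511 to 6.67). An FPKM of at least 1 was reached by 11 of 15 variant and 6 of 52 replication-dependent rows. The variant class took between 0.138% and 0.149% of the listed counts of a library, and the replication-dependent class between 0.00394% and 0.00452%. Within families, replication-dependent rows made 2.82% to 3.85% of H1 FPKM, 3.04% to 3.86% of H2A FPKM with macroH2A included, and 0.895% to 1.24% of H3 FPKM. For H2B and H4 all members were replication-dependent, so there was no variant to compare.

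The order of levels was led by H3f3b, which encodes the replacement histone H3.3, at a mean FPKM of 219.5 ± 9.56 (SD over 8 libraries, as for the next levels). H1f0, the linker histone H1.0 linked to quiescent and differentiated cells, followed at an FPKM of 154.2 ± 1.96. H2az1, which encodes H2A.Z and is known at promoters, was at an FPKM of 153.1 ± 7.55, and its libraries overlapped those of H1f0. Next came H2aj at an FPKM of 44.7, Macroh2a1 at 33.8, H2ax, the DNA damage-responsive H2A.X, at 26.0 and H3f3a, the other H3.3 gene, at 25.04. Of these 4, only H2ax and H3f3a overlapped as neighbours. H2az2 (FPKM 13.9) and Macroh2a2 (12.5) also overlapped, and the most abundant replication-dependent row, H2ac25, came after them at an FPKM of 6.67 ± 0.424. H1f2 was next at an FPKM of 4.18 ± 0.51, and the following rows, from H1f10 (2.29) through H2bc4 (2.18), H4c9 (1.86), H2af-ps2 (1.79) and H2bc18 (1.12), overlapped from neighbour to neighbour. The 3 most counted replication-dependent rows, H2ac25, H1f2 and H2bc21, held 61.1% of the counts of the class, and H3f3b, H1f0 and H2az1 held 77.0% of those of the variant class.

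**Figure D1:**
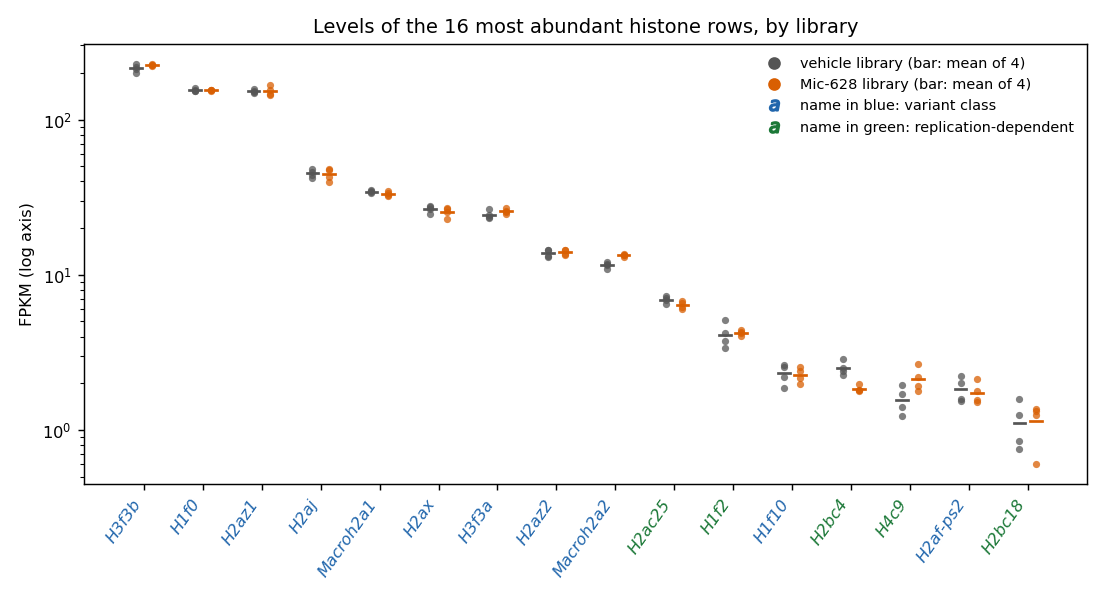
FPKM on a log axis for the 16 histone rows with the highest mean, ordered by level; each point is 1 library, grey for vehicle and orange for Mic-628, and the short bars are means of 4. Variant names in blue fill the first 9 places, and H2ac25, at a mean of 6.67, is the first replication-dependent name in green.

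Replication-dependent counts came mostly from a few rows with long transcript models. The 16 rows with at least 1000 nt of exon held 80.8% of the class's counts, and the other 36 rows held 19.2%. H2ac25, H1f2 and H2bc21, all among the 16, held 61.1%. Scaled to exon length, the median did not favour the long rows, at an FPKM of 0.212 for the 16 and 0.26 for the 36. FPKM divides by the same exon length that was used for this split, so long models covered only in part have a lower value. Median FPKM was 0.206 for the 19 rows whose model ran on for 100 nt or more after the stem-loop, 0.226 for the 14 rows with less than 100 nt after it, and 0.283 for the 19 rows whose model lacked the motif. The maximum FPKM was 6.67 in the first set, 0.779 in the second and 2.17 in the third. Summed over the rows of each set, the mean FPKM with vehicle was 16.44, 4.50 and 10.1, so the sums did not follow the medians. The model of H2ac25 ran on for 1643 nt after its stem-loop and that of H1f2 for 840 nt. An AATAAA or ATTAAA signal in the last 40 nt of the model was present in 8 of the 19 long models, 1 of the 14 short models and 3 of the 19 without the motif, against 38.6% of all matched rows.

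**Figure D2:**
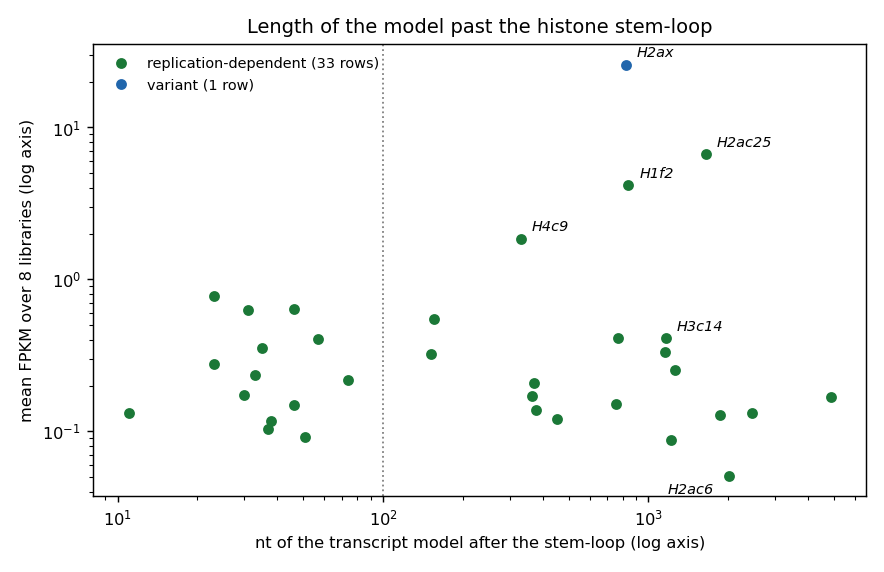
Mean FPKM over 8 libraries against the length of the transcript model after the stem-loop, both on log axes, for the 34 rows with the motif; the dotted line marks 100 nt. H2ax, H2ac25, H1f2 and H4c9 lie above an FPKM of 1 and all to the right of the line, while most long models lie as low as the short ones.

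After Mic-628, histone mRNAs in poly(A) RNA were called changed at the rate of genes at large. Of the 67 rows, 25 had enough counts to be tested (13 replication-dependent, 12 variant), and only Macroh2a2 passed the test, 4.0% of the 25, against 4.37% of all 17128 tested rows (2.13% higher and 2.25% lower). The test was edgeR's quasi-likelihood F test with Benjamini-Hochberg adjustment over all tested rows, and an adjusted p under 0.05 was a call. The replication-dependent rows had a median log2 fold change of 0.00 (7 above 0 and 6 below), the variant rows of 0.002 (6 and 6), and all tested rows of -0.004. An unadjusted p under 0.05 was reached by 4 of the 25 members, against 17.0% of all tested rows. The 42 untested rows had too few counts (summed counts of 10.0 to 72.0 for 39 replication-dependent rows and 19.5 to 59.5 for 3 variant rows, H3f5, H3f3a-ps1 and H3f3aos). In a fit without the count filter, 0 of these 42 were called by edgeR, the lowest adjusted p was 0.258, and 2 (H2ac19 and H3c13, named for that reason) had an unadjusted p under 0.05. That fit called 854 rows over the whole table, in which 39489 rows had any count before rounding. The share of its rows with an unadjusted p under 0.05 is not given here.

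Macroh2a2, which encodes the repressive variant macroH2A2 with its large macro domain, rose with Mic-628. Its FPKM with vehicle was 11.78, 10.91, 12.12 and 11.64 in replicates 1 to 4, and with Mic-628 it was 13.56, 13.46, 13.01 and 13.39. Every Mic-628 library lay above every vehicle library. The log2 fold change was 0.20 ± 0.05 (SE), or 1.15-fold (95% interval 1.08 to 1.23), with an edgeR adjusted p of 0.0120 and n = 4 per group. With groups that do not overlap, Mic-628 is higher in 4 of 4 batches by necessity. The call was lost without vehicle replicate 2 (log2 fold change 0.17, adjusted p 0.0747) and without batch 2 (0.17, adjusted p 0.129). When batch entered the model as a block, the adjusted p was 0.0266 in edgeR and 0.344 in DESeq2. The gene lies on the minus strand of chromosome 10 at chr10:61574444-61619926 (mm39, 1-based) and overlaps rows on the plus strand, Aifm2 and ENSMUSG00000124632 among those with counts. Their log2 fold changes were 0.01 (adjusted p 0.964) and 0.19 (adjusted p 0.794), the latter over a summed count of 104.5. Its paralog Macroh2a1 was more abundant, with FPKM of 34.09, 35.2, 33.8 and 34.41 with vehicle and 34.52, 33.46, 32.7 and 32.29 with Mic-628. These values overlapped, and the log2 fold change of Macroh2a1 was -0.05 ± 0.04 (adjusted p 0.523). The difference between the paralogs was not tested.

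The other variants lay close together in both groups. For H3f3b, the FPKM was 227.9, 217.3, 212.7 and 199.6 with vehicle and 224.2, 225.1, 222.4 and 227.3 with Mic-628, which overlap (log2 fold change 0.07 ± 0.03, adjusted p 0.318). For H1f0 it was 158.5, 153.1, 154.3 and 152.3 with vehicle and 154.3, 154.6, 154.4 and 152.4 with Mic-628, so nearly all libraries fell in the same narrow band. The 95% interval of its fold change was 0.96 to 1.04. H2az1 was at 149.1, 151.2, 152.0 and 158.1 FPKM with vehicle and at 145.4, 144.8, 156.1 and 167.8 with Mic-628, with an interval of 0.95 to 1.07-fold. H3f3a, H2az2, H2aj and H2ax had intervals of 0.99 to 1.12, 0.94 to 1.10, 0.91 to 1.05 and 0.89 to 1.03-fold. The weaker H1f10, H3f4 and H2af-ps2 had wider intervals, of 0.80 to 1.19, 0.71 to 1.83 and 0.67 to 1.39-fold. In the 12 tested variant rows the interval's half-width had a median of 0.10 on the log2 scale. H2aj and H2ax each contain a short row annotated on the opposite strand, with 2.98 and 0.746 times their own FPKM, and 58.7% of the 101-base words of H2az1 occur in another gene, so reads may be shared between these rows.

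Among replication-dependent rows, H2bc4, an H2B gene of the chromosome 13 cluster, was the nearest to a call. Its FPKM was 2.864, 2.5, 2.383 and 2.277 with vehicle and 1.79, 1.973, 1.797 and 1.819 with Mic-628. All Mic-628 libraries were below all vehicle libraries. Its log2 fold change was -0.44 ± 0.13 (SE, 0.74-fold, 95% interval 0.61 to 0.89), and the edgeR adjusted p was 0.0605, above the threshold. Without overlap, H2bc4 is also lower in 4 of 4 batches by necessity. Groups without overlap were found in 2 of the 25 tested members, Macroh2a2 and H2bc4, or 8.0% against 10.7% of all tested rows (5.64% with Mic-628 above, 5.06% with Mic-628 below).

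H4c9, an H4 gene, had the largest positive value. Its FPKM was 1.705, 1.235, 1.404 and 1.943 with vehicle and 1.79, 2.199, 1.932 and 2.648 with Mic-628. The groups overlapped, though Mic-628 was higher in 4 of 4 batches, and the log2 fold change was 0.46 ± 0.19 (adjusted p 0.204). H3c14, an H3 gene of the chromosome 3 cluster, had the lowest value. Its CPM, the count scaled to library size, was 1.14, 0.991, 0.982 and 0.823 with vehicle and 0.331, 1.03, 0.582 and 0.568 with Mic-628. Mic-628 replicate 2 stood among the vehicle libraries and the other 3 below them, and the log2 fold change was -0.62 ± 0.27 (edgeR adjusted p 0.230). It was -0.99 without Mic-628 replicate 2 (adjusted p 0.0493), -0.44 without Mic-628 replicate 1 (adjusted p 0.478) and -0.37 without batch 1 (adjusted p 0.574). All 101-base words of H3c14 occur in another gene, so its reads cannot be assigned with certainty.

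H2ac25, the most abundant replication-dependent row, had an FPKM of 7.033, 6.84, 7.325 and 6.505 with vehicle and of 6.793, 6.586, 6.046 and 6.193 with Mic-628. Mic-628 was lower in 4 of 4 batches, but the groups overlapped, and the log2 fold change was -0.12 ± 0.06 (adjusted p 0.362). A short row annotated on the opposite strand inside it had 3.71 times its FPKM. H1f2, a linker histone gene, had FPKM of 4.221, 5.137, 3.383 and 3.744 with vehicle and 4.412, 4.045, 4.25 and 4.218 with Mic-628, and the Mic-628 libraries lay within the range of the vehicle libraries (0.88 to 1.19-fold). H2bc21, an H2B gene of the chromosome 3 cluster, had a log2 fold change of -0.24 ± 0.16 (adjusted p 0.486) and H4c14 of 0.30 ± 0.36 (adjusted p 0.735), which was -0.03 without batch 3. The remaining 6 tested rows (H1f3, H1f4, H1f5, H2ac10, H2bc18 and H4c4) had adjusted p-values from 0.667 to 1.0. The half-width of the interval ranged from 0.13 to 0.74 on the log2 scale in the 13 rows, with a median of 0.55.

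**Figure D3:**
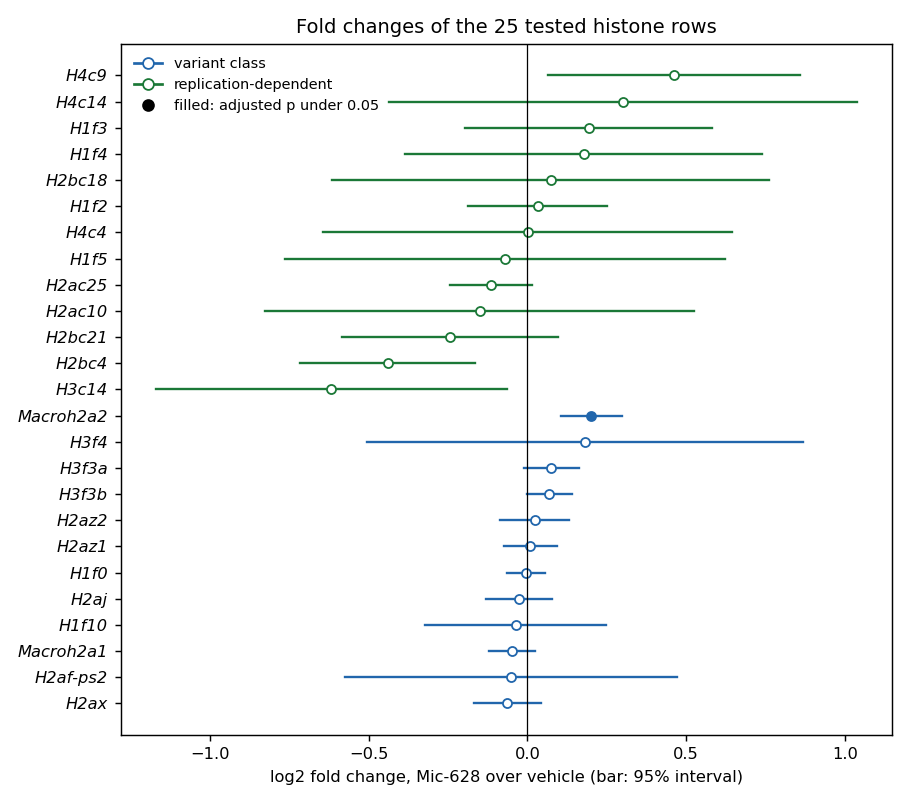
log2 fold change of Mic-628 over vehicle for the 25 tested histone rows, with 95% intervals from the edgeR fit; green is replication-dependent and blue is variant, and a filled point has an adjusted p under 0.05. Only Macroh2a2 is filled, and the intervals of most replication-dependent rows are several times wider than those of the abundant variants.

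Summed over all rows of a class, the untested ones included, the groups overlapped. In CPM, the replication-dependent sum was 42.5, 45.2, 41.56 and 39.84 in the vehicle libraries and 39.39, 40.22, 39.54 and 42.27 in the Mic-628 libraries, or 42.28 ± 2.24 and 40.35 ± 1.33 (SD, n = 4), a ratio of 0.955. The variant sum was 1480, 1422, 1424 and 1387 in the vehicle libraries and 1445, 1437, 1459 and 1495 in the Mic-628 libraries, a ratio of 1.02. By family, the replication-dependent H2A sum was 17.69, 18.16, 19.01 and 17.35 in the vehicle libraries and 17.01, 16.79, 15.62 and 16.25 in the Mic-628 libraries. The H2A groups did not overlap (ratio 0.909), but H2ac25 alone, whose own groups overlapped, made 88.9% of the sum with vehicle and 90.4% with Mic-628. The other 10 H2A rows summed to 1.41, 2.33, 2.04 and 2.23 CPM in the vehicle libraries and to 1.22, 1.59, 1.63 and 1.85 CPM in the Mic-628 libraries. These values overlapped, but their ratio was 0.784 and Mic-628 was lower than vehicle in every batch. The H2B sum was 8.51 ± 0.744 CPM with vehicle and 7.20 ± 0.600 CPM with Mic-628 (ratio 0.846), with groups that touched, and without H2bc4 the ratio was 0.910. Leaving out H2ac25 or H2bc4 was chosen after seeing the data. H1, H3 and H4 had ratios of 1.05, 0.976 and 1.16. These sums were not tested, since they are scores over chosen members. RNAs without a poly(A) tail other than histone mRNAs summed to 7.92 ± 1.56 CPM with vehicle and 8.79 ± 1.82 with Mic-628, and their part in the sums was not tested.

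**Figure D4:**
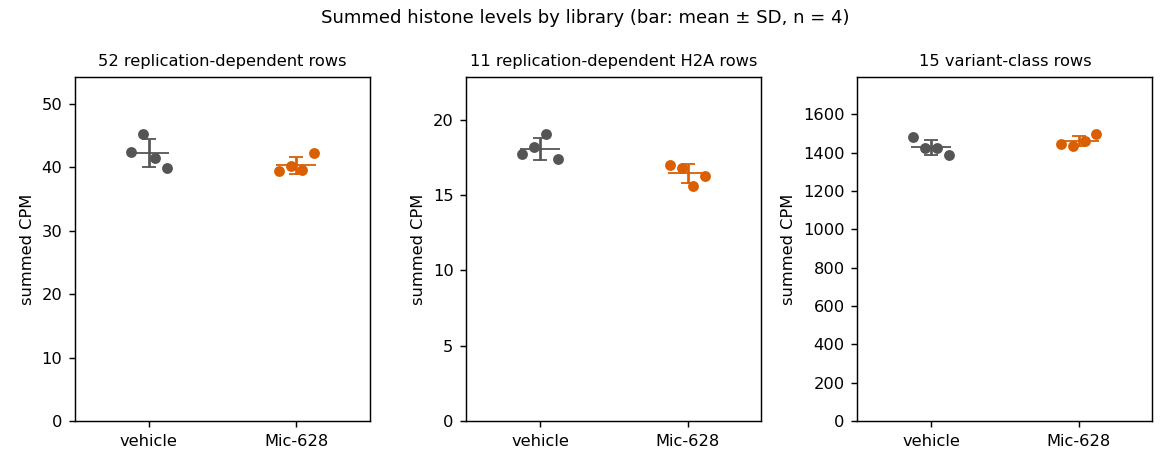
Summed CPM in each library for the 52 replication-dependent rows, the 11 replication-dependent H2A rows and the 15 variant rows; points are libraries and bars are mean ± SD, n = 4, on axes from 0. In the H2A panel, where H2ac25 makes 88.9% of the vehicle sum, all 4 Mic-628 libraries lie below all 4 vehicle libraries, and in the other panels the groups overlap.

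The factors that make and handle histone mRNA showed no call. Of 23 tested genes for histone mRNA transcription, 3′ processing and decay, 0 were called in either direction by edgeR, and 5 had an unadjusted p under 0.05 (median log2 fold change 0.01). Over all tested rows these shares were 4.37% and 17.0%. Those with the smallest p were Casp8ap2, which encodes the histone locus body protein FLASH (log2 fold change 0.14, adjusted p 0.0879), the cap-binding gene Ncbp1 (0.11, adjusted p 0.0945) and the decay factor gene Lsm1 (0.17, adjusted p 0.115). Lsm1 was called without vehicle replicate 1 (adjusted p 0.0263). Of 30 chaperone and deposition genes 0 were called and 6 had an unadjusted p under 0.05 (median 0.02), beside the same 4.37% and 17.0%. They were led by the H3-H4 chaperone gene Asf1b (0.20, adjusted p 0.0919), Dek (0.10, adjusted p 0.145) and Ubn1 of the HIRA complex (0.09, adjusted p 0.192).

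The S phase list held 31 tested genes, of which 7 were called higher and 0 lower by edgeR. Over all tested rows the called share was 4.37%. The log2 fold change was above 0 in 29 of the 31, with a median of 0.11, beside -0.004 over all tested rows. An unadjusted edgeR p under 0.05 was reached by 17 of the 31, against 17.0% of all tested rows. The replicative helicase gene Mcm6 went from 63.8 ± 2.79 to 71.1 ± 1.96 CPM (log2 fold change 0.15, adjusted p 0.0182), Uhrf1, which maintains DNA methylation, rose by 0.13 (adjusted p 0.0202) and the ribonucleotide reductase gene Rrm2 by 0.18 (adjusted p 0.0238). Mcm6 was no longer called when vehicle replicate 2 or Mic-628 replicate 1 was left out (edgeR adjusted p 0.118 and 0.0600). Uhrf1 lost its call on leaving out vehicle replicate 2 (edgeR adjusted p 0.113), and also on leaving out replicate 3 (0.0805) or 4 (0.0503) of Mic-628. Rrm2 lost its call on leaving out replicate 3 (0.0602) or 4 (0.0719) of vehicle, and replicate 1 (0.0910) or 3 (0.110) of Mic-628. The count of 7 fell to 1 without vehicle replicate 2 or Mic-628 replicate 3, to 2 without vehicle replicate 3 or Mic-628 replicate 1, and to 3 without Mic-628 replicate 4. It was 4 with the block in edgeR and 0 with it in DESeq2. Of the 24 RNAs without a poly(A) tail, 5 could be tested and 0 were called by edgeR, with 0 at an unadjusted p under 0.05. They included Rn7sk (log2 fold change 0.37, adjusted p 0.549, and -0.21 without batch 4), Snora73a (0.19, adjusted p 0.664) and Scarna2 (-0.18, adjusted p 0.817).

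The library totals in the file header ranged from 19.6 M to 25.1 M (M, mega), and counts on listed rows from 18.1 M to 23.2 M. All 12 fibroblast markers had a mean FPKM of at least 1 (Vim highest, at 1980), as did 0 of 6 epithelial, 2 of 6 macrophage and blood and 0 of 4 endothelial markers. The summed FPKM of the fibroblast markers was 5230 to 5410 with vehicle and 4580 to 4690 with Mic-628, and that of the blood markers, mostly Cd68, was 8.05 to 8.78 and 8.89 to 9.75, with 1 marker at 0. The epithelial sum was 0.307 to 0.572 and 0.517 to 0.748. The part of these shifts in the histone values was not tested.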

How the data were processed

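Poly(A) RNA of 8 NIH3T3 libraries, 4 per group, was analysed. The tools were HOMER 4.11, STAR 2.7.10a and bcl2fastq on GRCm39 (mm39), per the submitters' processing notes; their roles, and whether counting used strand or multiply mapped reads, are not given in the sources used here. The authors deposited raw read counts per exon model, in steps of 0.5 and treated here as estimated counts, and FPKM. How the steps of 0.5 arose before deposit is not given in the sources used here. FPKM recomputed from the counts and header totals differed by at most 5e-04. After rounding, edgeR 4.0.16 in R 4.3.3 was applied to the counts (filterByExpr, minimum count 10, TMM, quasi-likelihood F test, Benjamini-Hochberg adjustment over 17128 rows). TMM factors lay between 0.9946 and 1.007. The coefficient that edgeR names biological variation was 3.47%. Here it measures variation among libraries, which may be partly or wholly technical. Replicates differed beyond counting noise (chi-square per gene 1.59 to 4.87), so none were merged. DESeq2 1.42.0 and limma 3.58.1 served as alternatives.

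The members, gene lists and classes were chosen with earlier results of these data known. Named genes are every called member, the member with the highest mean FPKM in each class and family, the 3 tested members with the largest log2 fold change in each direction, the members at the count minimum, and the 3 members of each list with the smallest p. Other members named were chosen after their values were seen. The labels' batch number pairs the libraries. Over 10292 genes, the correlation of deviations from the group means was between -0.0949 and 0.0744 for libraries of the same number and between -0.117 and 0.141 for other pairs.

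Stem-loops were searched in GENCODE M21 transcripts (65 of 67 members matched, 64 with the same model length) and promoters in RefSeq (GRCm38.p6). Of the members, 21 share over 50% of their 101-base words with another gene and 40 overlap another row, so their counts may be split. Alternatives were other scalings, no count filter or a stricter filter, FPKM pseudocounts of 1 and 0.1, the block, and leaving out each library or batch. Only the main edgeR fit was tested on simulated counts.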

Additional observations from a re-analysis of the deposited data

Results flagged for a closer look

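Scarna2, a small Cajal body RNA in the list of RNAs without a poly(A) tail, was at 0.4189 CPM in Mic-628 replicate 3, against 0.5524 to 0.5684 CPM in the other 3 Mic-628 libraries. With 21.5 M counts on listed rows in Mic-628 replicate 3, such a level rests on few reads. The gap to the nearest library, divided by the range of the group, was 0.893, above Dixon's 95% critical value for 4 samples. It was the only such value among 52 groups checked, and chance flags about 1 in 20.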

How the results depend on the processing

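The count of called replication-dependent rows was 0 higher in every alternative and 0 lower in all but the fit without Mic-628 replicate 2, where it was 1 (leave-one-out range 0 to 1). The count of variant rows called higher, 1 as reported, was 0 with the replicate block in DESeq2, 0 by limma-trend on log2(FPKM + 1) over all rows, 0 without batch 2, 2 without batch 1 (Macroh2a2 and H3f3a), and 0 to 1 when each library was left out. Macroh2a2 was called in 20 of 24 alternatives, with a log2 fold change of 0.17 to 0.24 and an adjusted p of 0.00847 to 0.344; by limma-trend over all rows its adjusted p was 0.0717. The count for histone mRNA processing genes, 0 as reported, was 1 without batch 1 and 0 to 1 when each library was left out. The S phase count, 7 as reported, was 4 with the block in edgeR, 0 with the block in DESeq2, 1 in each limma-trend fit on FPKM, 4 without batch 1, 0 without batch 2, 1 without batch 3, and 1 to 8 when each library was left out. Under the block, the paired log2 ratio of summed CPM was -0.07 for the replication-dependent and 0.03 for the variant class, as without it; in edgeR the block changed no member's call. The cause of these differences was not tested.

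The log2 fold changes of 5 named genes changed sign, none of them called: H1f0, H1f2 and H2az1, reported within 0.04 of 0, and H4c14 (0.30) and Rn7sk (0.37). H1f0 was 0.0007 with library size scaling, 0.0040 without batch 1 and -0.0111 to 0.0074 without single libraries. H1f2 was -0.0551 without batch 3, -0.0109 without batch 4 and -0.0515 to 0.1597 without single libraries. H2az1 was -0.0175 without batch 4 and -0.0342 to 0.0388 without single libraries. H4c14 was -0.0316 without batch 3, and Rn7sk was -0.2059 without batch 4 and -0.0272 to 0.7022 without single libraries. Of the 52 replication-dependent rows, 39 had too few counts to test, and the cause of the low counts was not tested.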

Other observations

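Of the 67 histone rows, 40 overlap another row of the table, and 13 contain a row of at most 150 nt annotated on the opposite strand. Of the 13 host rows, 12 are H2A genes, pseudogene included, and the other is Macroh2a2, whose inner row was at 0. In 3 hosts the inner row had the higher FPKM: 133.0 against 44.7 for H2aj, 24.7 against 6.67 for H2ac25, and 2.15 against 1.04 for H2ac10. In H2ax it was 19.4 against 26.0. The log2 fold changes of the tested inner rows were -0.03 in H2aj, -0.26 in H2ac25 and -0.03 in H2ax, and those of their hosts -0.03, -0.12 and -0.06. These rows were chosen after their values were seen.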
